A study of Mus musculus with 8 samples.

Results

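The 8 transcription factor genes that drive osteoclast fate, Nfatc1, Nfatc2, Mitf, Tfe3, Tfec, Prdm1, Spi1 and Myc, were followed across 4 culture conditions of mouse osteoclast precursor cells. They were taken by gene symbol from the deposited expression table, in which all 8 were present among 25124 genes. All 8 had a mean level of at least 0.5 FPKM (read level scaled for transcript length and library total) over the libraries and were among the 11700 genes tested. The cells were macrophage-like precursors grown from the bone marrow of 6- to 8-week-old mice, labelled C57BL/6, whereas the culture methods of the study name ICR mice. The 4 groups of 2 RNA-seq libraries were labelled as M-CSF (control), 200 nM recombinant peroxiredoxin 1 (PRDX1 alone), 100 ng/ml RANKL (RANKL alone), and both of these agents (PRDX1 + RANKL), each for 48 h. The precursors of every group had been grown beforehand with 30 ng/ml M-CSF, the growth factor that keeps them alive. During the 48 h the labels name M-CSF for control alone and do not say whether the other groups received it as well. No gene deletion or transgene is named for any group. Nothing in the labels says whether the 2 libraries of a group came from separate cultures or animals, so the p-values measure the spread between these libraries, which may be technical.

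RANKL is the cytokine that turns macrophage precursors into osteoclasts, the cells that resorb bone, and PRDX1 outside the cell acts on the innate immune receptor TLR4. In precursors, PU.1 (encoded by Spi1) holds the myeloid program and is needed for osteoclasts as well, while NFATc2, already present before RANKL, helps to switch on Nfatc1. NFATc1 is activated by calcium and calcineurin, amplifies its own gene and is the master regulator of osteoclast genes. It acts on these genes together with PU.1 and with MITF and TFE3, members of the MiT/TFE family to which TFEC also belongs. PRDM1 (Blimp1) silences the repressors that hold precursors back, and MYC drives the metabolic and ribosomal growth of early differentiation.

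RANKL alone raised 6 of the 8 factors, or 5, without Tfec, under 4 of 14 alternative settings. When PRDX1 was added to RANKL, Prdm1 and Nfatc1 fell by most of that rise. The levels of Mitf in PRDX1 + RANKL lay near those of PRDX1 alone and above control, and those of Tfec lay near both groups without RANKL. Those of Spi1 lay between control and RANKL alone, and those of Myc lay close to RANKL alone. Nfatc2 and Tfe3, the 2 factors that RANKL did not raise, had their highest means in groups without RANKL. A gene was called here when its adjusted p-value (limma, Benjamini-Hochberg over all genes tested) was under 0.05 and its fold change was at least 1.5, and the words rose and fell are kept for such calls. Differences are on the log2(FPKM + 1) scale, which understates the change of genes with low levels such as Prdm1.

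**Figure D1:**
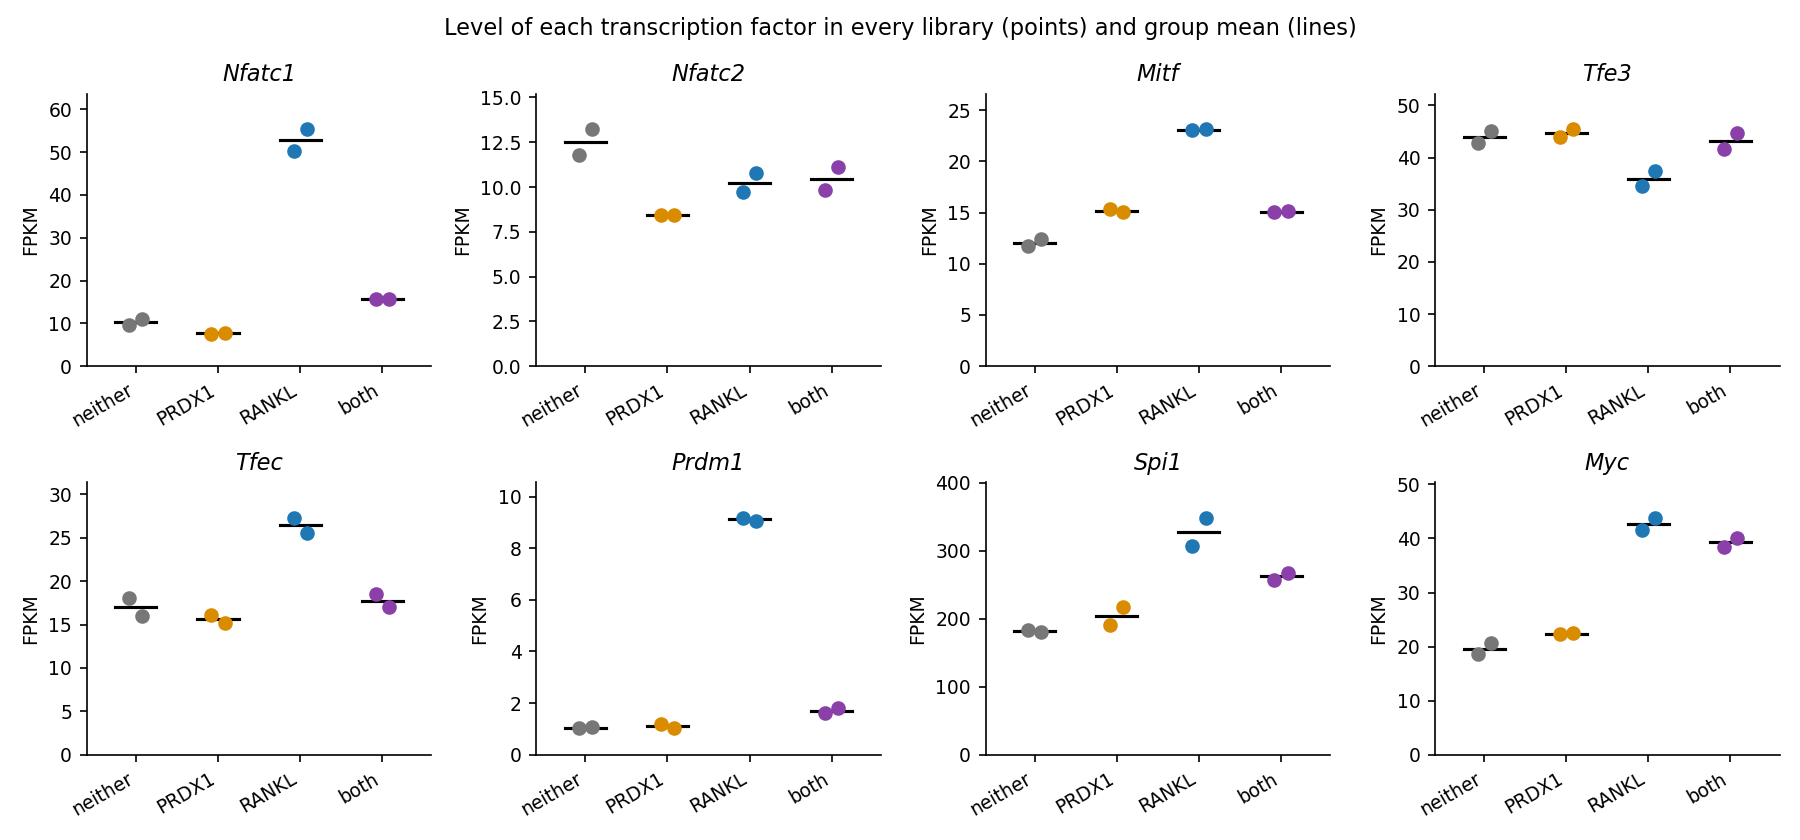
Level of each factor (y axis, FPKM, each panel with its own scale from 0) in the 8 libraries, as points, with a line at the mean of each group of 2; neither stands for control and both for PRDX1 + RANKL. RANKL alone stands highest in the panels of Nfatc1, Mitf, Tfec, Prdm1, Spi1 and Myc, and lowest in that of Tfe3.

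Among the libraries, 24542578 to 41712967 reads were counted on genes, and the pairs of replicates differed beyond the sampling noise of their reads (4.71 to 9.58 for the chi-square divided by its degrees of freedom). All 7 macrophage markers examined were detected, and their summed level was 15264 to 17017 FPKM in control, 16145 to 16602 with PRDX1 alone, 9710 to 10132 with RANKL alone and 13101 to 13494 with PRDX1 + RANKL. Most of that sum was Lyz2, at 8326.4 to 14981.5 FPKM over the libraries, so the sum mainly follows this gene. In such bulk samples, fewer cells of a type and less RNA per cell cannot be told apart. The markers of neutrophils summed to 7.55 to 11.6 FPKM in control, 38.3 to 42.0 with PRDX1 alone, 15.6 to 15.9 with RANKL alone and 33.5 to 36.4 with PRDX1 + RANKL. Most of this sum was S100a8 and S100a9, at up to 18.0 and 21.5 FPKM in a library. Elane and Mpo did not exceed 1.64 and 1.74 FPKM, and Ly6g, Camp and Ltf did not exceed 0.279, 0.621 and 0.239 FPKM. Those of stromal cells and osteoblasts summed to 7.97 to 10.6, 16.5 to 17.1, 8.09 to 9.77 and 15.5 to 19.1 FPKM, and those of dendritic cells to 1.36 to 1.47, 3.39 to 3.89, 2.36 to 2.52 and 4.59 to 5.76 FPKM, in the same order of groups. T cell markers did not exceed a sum of 0.643 FPKM in any library. The part of these marker levels in the results below was not tested.

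Of the 8 factors, 6 rose with RANKL in the absence of PRDX1, where 11.8% of all genes tested were called higher, and 0 fell, where 9.96% of all genes were called lower. The count of 6 was 5, without Tfec, under quantile normalization, under upper quartile scaling, without control replicate 2 and without RANKL replicate 1. With PRDX1 alone, 0 of the 8 were called in either direction, against 3.8% of all genes called higher and 1.99% called lower, although Nfatc2 was called lower without control replicate 1. When PRDX1 was added to RANKL, 0 of 8 rose (6.03% of all genes) and 2 of 8, Nfatc1 and Prdm1, fell (4.17% of all genes). Another factor fell under 5 alternatives, Mitf with a pseudocount of 0.1, with voom and without RANKL replicate 1, and Tfec without RANKL replicate 2 and without PRDX1 + RANKL replicate 1. By adjusted p alone, 6 of the 8 passed in that comparison, 5 of them below 0, but 42.5% of all genes passed by that rule as well.

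With PRDX1 present, RANKL raised 2 of the 8 factors, Nfatc1 and Myc, and lowered 0, where 4.52% of all genes were called higher and 3.98% lower. With voom it raised Prdm1 too. PRDX1 + RANKL against control gave 1 of the 8 called higher, Myc, and 0 lower, with 7.5% and 5.34% of all genes called in those directions. That count was 3, with Nfatc1 and Prdm1, with a pseudocount of 0.1 and with voom, and 2, with Nfatc1, without control replicate 2. The interaction, which is the effect of PRDX1 in the presence of RANKL minus its effect in the absence of RANKL, was called below 0 for 3 factors (Nfatc1, Mitf and Prdm1) and above 0 for 0 factors, although Nfatc2 was called above 0, at 0.59 to 0.63, with a pseudocount of 0.1, with voom and without control replicate 1, RANKL replicate 2 or PRDX1 + RANKL replicate 1. Over all genes tested it was called below 0 for 4.35% and above 0 for 4.5%. By adjusted p alone, 7 of the 8 passed the test of the interaction, 6 of them below 0, whereas 23.1% of all genes did. These comparisons share libraries with each other, so their counts are not independent.

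**Figure D2:**
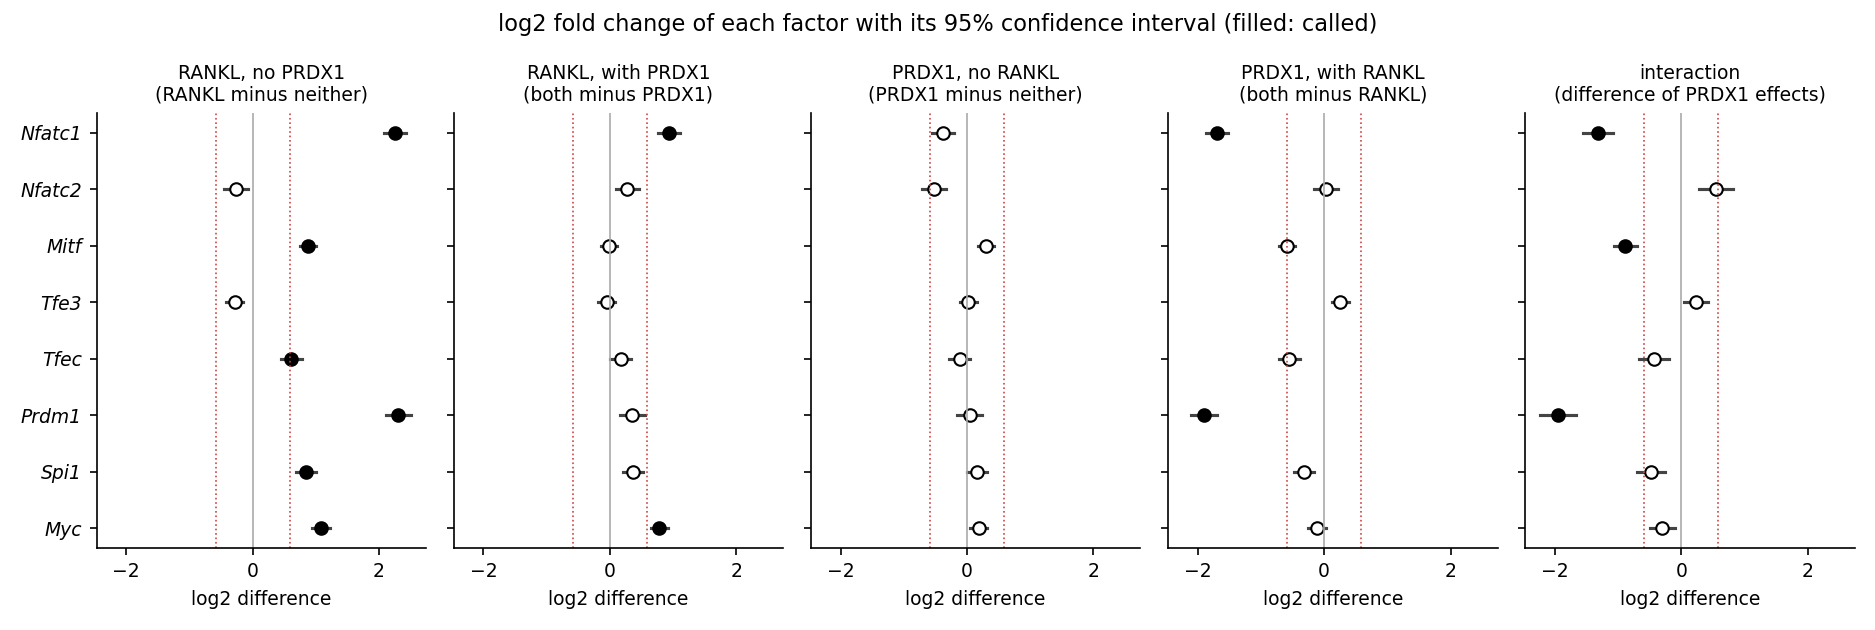
Difference of each factor in log2(FPKM + 1) (x axis) in 5 panels, 1 for each comparison, with its 95% confidence interval as a bar and dotted lines at a fold change of 1.5 in each direction; neither stands for control and both for PRDX1 + RANKL, and filled points were called. With RANKL and no PRDX1, 6 points are filled to the right of 0, whereas the filled points of PRDX1 with RANKL are those of Nfatc1 and Prdm1, to the left of 0.

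Sequences just upstream of the counted start of transcription are shown for Mitf, Tfec and Prdm1, 3 of the RANKL-raised factors. They have an entry at that start in the RefSeq promoter table of GRCm38.p6, in which 5 of the 8 factors were found so. Nfatc1 was not looked up in it. Each is the 250 bases before the start, written 5′ to 3′ on the strand of the gene, and capitals mark GGAAA, the core bound by NFAT proteins, or GAGGAA, a core of PU.1 sites, searched on both strands. The Mitf window is chr6:97991533-97991782 on the + strand, that of Tfec is chr6:16898442-16898691 on the - strand, and that of Prdm1 is chr10:44458749-44458998 on the - strand.
Mitf: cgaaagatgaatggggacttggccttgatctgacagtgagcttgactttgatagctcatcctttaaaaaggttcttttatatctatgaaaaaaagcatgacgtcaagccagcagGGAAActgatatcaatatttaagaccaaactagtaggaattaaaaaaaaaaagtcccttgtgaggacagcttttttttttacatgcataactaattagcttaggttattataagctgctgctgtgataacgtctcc
Tfec: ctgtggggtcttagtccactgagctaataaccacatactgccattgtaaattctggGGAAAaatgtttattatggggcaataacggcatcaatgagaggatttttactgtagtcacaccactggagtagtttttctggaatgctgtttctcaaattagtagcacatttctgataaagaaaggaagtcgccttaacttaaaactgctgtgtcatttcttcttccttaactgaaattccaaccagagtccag
Prdm1: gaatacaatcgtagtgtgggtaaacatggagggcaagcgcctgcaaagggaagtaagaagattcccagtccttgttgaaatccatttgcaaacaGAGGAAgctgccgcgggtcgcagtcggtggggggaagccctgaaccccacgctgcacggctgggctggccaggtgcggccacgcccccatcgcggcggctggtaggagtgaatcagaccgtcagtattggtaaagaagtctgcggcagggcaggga

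The Mitf and Tfec windows each held 1 GGAAA, from 136 to 132 and from 194 to 190 bases before the start, and that of Prdm1 held none of these and 1 GAGGAA, from 156 to 151 bases before it. These letters are common, since GGAAA occurred in 55.6% and GAGGAA in 23.3% of the 32851 promoters of the same length. The Tfec window also held GGAAGT, a core of ETS factor sites, from 70 to 65 bases before the start, and that of Prdm1 held it from 202 to 197, a pattern found in 19.7% of promoters. Only the Prdm1 window of the 3 held TGAATCA, a match to the AP-1 pattern TGANTCA, from 48 to 42 bases before the start (6.75% of promoters). It was also alone among the 3 in holding a loose NF-κB pattern (GGG, any 5 bases, then CC) found in 45.8% of promoters, with 3 matches on both strands that overlap each other from 127 to 117 bases before the start and 1 from 80 to 71. The pattern also occurred in the windows of Nfatc2 (6 matches, in overlapping pairs) and Tfe3 (2 matches), the other 2 factors with such an entry. Neither gene was called with RANKL, and their windows held 1 and 2 GGAAA. The M-box CATGTG and the E-box CACGTG, the letters that MiT/TFE proteins and MYC bind, were in none of the 3 windows and in 12.3% and 6.02% of promoters. The 3 windows differed in composition, with 36% G and C in Mitf, 39.2% in Tfec and 59.2% in Prdm1, against a median of 52.4% over all promoters. The Mitf and Prdm1 windows held no exon but lie inside longer transcripts of the same genes in the GENCODE annotation, and reads on shared exons cannot tell such transcripts apart. A match of letters is a description and shows no binding.

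Nfatc1, the master regulator, was read on NM_016791 (chr18:80647435-80708173 in mm10, - strand, 8 exons). Its level was 9.54 and 11.1 FPKM in the control libraries, 7.64 and 7.76 with PRDX1 alone, 50.3 and 55.4 with RANKL alone, and 15.6 and 15.7 with PRDX1 + RANKL. No 2 groups overlapped, and both RANKL alone libraries stood far above the other 6. The order of the means was PRDX1 alone (7.70 ± 0.0849 FPKM, SD, n = 2), control (10.3 ± 1.07), PRDX1 + RANKL (15.7 ± 0.0304) and RANKL alone (52.9 ± 3.58).

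RANKL alone raised Nfatc1 5.13-fold in mean FPKM, a difference of 2.25 ± 0.08 (SE) on the log2 scale (limma adjusted p = 4.95e-09). With PRDX1 present, RANKL still raised it, but by 0.94 ± 0.08 (adjusted p = 9.95e-06). PRDX1 added to RANKL lowered Nfatc1 by a log2 difference of -1.69 ± 0.08 (adjusted p = 1.30e-07), and the RANKL alone mean was 3.38 times that of PRDX1 + RANKL. Without RANKL, the difference between PRDX1 alone and control was -0.37 ± 0.08 (adjusted p = 0.00490), under the fold limit. The 2 effects of PRDX1 differed by -1.32 ± 0.11 (adjusted p = 2.54e-05). PRDX1 + RANKL stood 0.56 above control (adjusted p = 2.14e-04), under the fold limit, which it passed at 0.66 without control replicate 2, at 0.60 with a pseudocount of 0.1 and at 0.60 with voom.

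Nfatc2, the NFAT protein of resting precursors, was read on NM_001291178 (chr2:168476410-168590365, - strand, 10 exons). It was at 11.8 and 13.2 FPKM in control, 8.41 and 8.46 with PRDX1 alone, 9.72 and 10.8 with RANKL alone, and 9.83 and 11.1 with PRDX1 + RANKL. The control libraries were the highest and those with PRDX1 alone the lowest, and the groups with RANKL overlapped each other between them. RANKL alone differed from control by -0.27 on the log2 scale (adjusted p = 0.0207), and PRDX1 alone from control by -0.52 (adjusted p = 0.00139), neither reaching the fold limit. The latter reached it, at -0.59, without control replicate 1. With PRDX1 present the RANKL difference had the opposite sign, 0.28 (adjusted p = 0.0240), also under the fold limit. With 1 library left out, the adjusted p of these RANKL differences reached 0.146 without PRDX1 and 0.186 with it. Adding PRDX1 to RANKL made a difference of 0.03, with a 95% confidence interval from -0.16 to 0.22 (adjusted p = 0.814).

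The order of the 2 NFAT genes therefore differed with RANKL, although Nfatc2 itself was not called with RANKL. The FPKM of each gene rests on the length of 1 counted transcript, so ratios near 1 depend on that choice. Nfatc1 was at 0.809 and 0.835 of the Nfatc2 level (ratio of FPKM) in the control libraries and at 0.908 and 0.917 with PRDX1 alone. It was at 5.18 and 5.14 times that level with RANKL alone, and at 1.59 and 1.41 times with PRDX1 + RANKL. Hence Nfatc1 was the less abundant of the pair in all 4 libraries without RANKL and the more abundant in all 4 with it, PRDX1 or not. The log2 difference in Nfatc2 between PRDX1 + RANKL and control was -0.24 (adjusted p = 0.0444), but it ranged from -0.32 to -0.16 with 1 library left out, nearest to 0 without PRDX1 + RANKL replicate 1 (adjusted p = 0.283), and its adjusted p reached 0.0928 without the filter on low values.

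**Figure D3:**
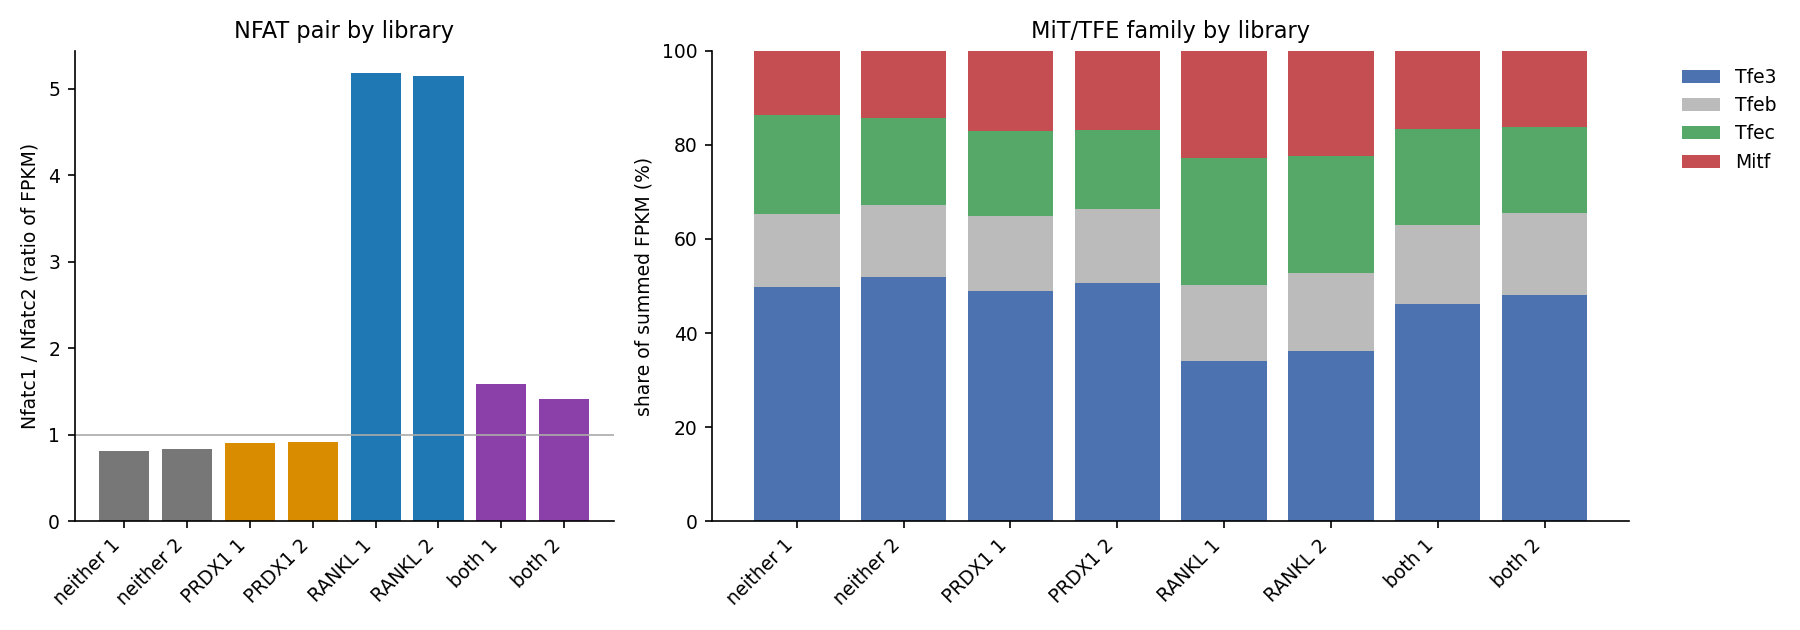
Left, level of Nfatc1 divided by that of Nfatc2 (y axis, ratio of FPKM) in each library, with a line at 1; right, share of each MiT/TFE gene in their summed FPKM (y axis, %) in each library; neither stands for control and both for PRDX1 + RANKL. The ratio is above 5 in both RANKL alone libraries and under 2 in the other 6, and the Mitf and Tfec shares are largest with RANKL alone.

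Of the other NFAT genes, Nfat5, the NFAT protein that does not need calcineurin, rose with RANKL alone by 1.11 (adjusted p = 3.98e-07) from a mean of 3.36 to 8.39 FPKM and was at 9.17 FPKM with PRDX1 + RANKL. Adding PRDX1 to RANKL made a difference of 0.11 in it (adjusted p = 0.209), beside the -1.69 of Nfatc1. Nfatc3 differed by 0.06 with RANKL alone (adjusted p = 0.425), and Nfatc4 was too low to be tested. For the gene lists from here on, the shares of all genes tested serve as the background. With RANKL alone, 11.8% of them were called higher and 9.96% lower. When PRDX1 was added to RANKL these shares were 6.03% and 4.17%, and with PRDX1 alone 3.8% and 1.99%. For RANKL with PRDX1 present they were 4.52% and 3.98%, and for the interaction 4.5% above and 4.35% below 0. Of 24 tested genes of the calcium and calcineurin path that activates NFAT proteins, 2 rose and 4 fell with RANKL alone, and their median log2 difference was -0.09 against 0.10 over all genes tested. The genes that fell were 7 in number without RANKL replicate 2, under both other scalings, with a pseudocount of 0.1 and with voom.

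The largest differences in that path were those of Oscar, an immunoreceptor that feeds the calcium signal and is itself a target of NFATc1 (3.46), of Rcan1, a calcineurin inhibitor that NFAT proteins induce (1.12), and of Trem2, another immunoreceptor of the path (-1.02). Oscar had means of 0.0065 FPKM in control, 0.033 with PRDX1 alone, 10.1 with RANKL alone and 0.337 with PRDX1 + RANKL. It passed the filter only through the RANKL alone group, and its log2 difference depends on the pseudocount. Addition of PRDX1 to RANKL lowered Oscar by -3.05 and Rcan1 by -1.03 and raised Trem2 by 0.68, with 1 of the 24 genes higher, 2 lower and a median of 0.06 against -0.06 over all genes. Rcan1 stood at 11.0 FPKM in control, 25.2 with RANKL alone and 11.8 with PRDX1 + RANKL. With PRDX1 alone, 0 of the 24 were called.

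Mitf, which binds osteoclast promoters beside PU.1, was read on NM_008601 (chr6:97991783-98021358, + strand, 9 exons). It was at 11.8 and 12.4 FPKM in control, 15.3 and 15.0 with PRDX1 alone, 23.0 and 23.1 with RANKL alone, and 15.1 and 15.1 with PRDX1 + RANKL. RANKL alone stood apart from the other groups, whereas PRDX1 alone and PRDX1 + RANKL overlapped. Mitf rose 1.91-fold with RANKL alone, by 0.88 ± 0.06 (SE) on the log2 scale (adjusted p = 5.44e-07). In the presence of PRDX1, RANKL made a difference of -0.01, with a 95% confidence interval from -0.13 to 0.12 (adjusted p = 0.939). PRDX1 + RANKL stood 0.30 above control (adjusted p = 0.00187), under the fold limit.

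The PRDX1 differences in Mitf had opposite signs without and with RANKL. They were 0.31 ± 0.06 (adjusted p = 0.00292) and -0.58 ± 0.06 (adjusted p = 2.65e-05), and the interaction was -0.89 ± 0.08 (adjusted p = 4.70e-05). The second of these missed the fold limit narrowly and passed it, at -0.61, with a pseudocount of 0.1 and with voom, and at -0.59 without RANKL replicate 1. Of 5 markers of melanocytes, a cell type in which Mitf is high, 4 were listed at 0 in every library.

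Tfec, a MiT/TFE gene expressed mainly in macrophages, was read on NM_031198 (chr6:16833381-16898441, - strand, 7 exons). Its level was 18.0 and 16.0 FPKM in control, 16.1 and 15.1 with PRDX1 alone, 27.3 and 25.6 with RANKL alone, and 18.5 and 17.0 with PRDX1 + RANKL. RANKL alone was the only group apart from the rest, since control overlapped both PRDX1 alone and PRDX1 + RANKL. Tfec rose 1.55-fold with RANKL alone, by 0.61 ± 0.07 (adjusted p = 5.84e-05). This value fell just under the fold limit at 0.53 under quantile normalization, 0.54 under upper quartile scaling, 0.53 without control replicate 2 and 0.56 without RANKL replicate 1. PRDX1 added to RANKL made a difference of -0.55 ± 0.07 (adjusted p = 2.36e-04), under the fold limit, which it passed at -0.60 without RANKL replicate 2 and at -0.61 without PRDX1 + RANKL replicate 1.

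Tfe3, the close relative that can stand in for MITF in osteoclasts, was read on NM_001105197 (chrX:7763943-7775202, + strand, 10 exons). It was at 42.8 and 45.2 FPKM in control, 43.9 and 45.5 with PRDX1 alone, 34.5 and 37.4 with RANKL alone, and 41.7 and 44.7 with PRDX1 + RANKL. Both RANKL alone libraries lay under the other 6, among which control overlapped both remaining groups. RANKL alone differed from control by -0.28 ± 0.06 (adjusted p = 0.00240), and PRDX1 + RANKL from RANKL alone by 0.26 ± 0.06 (adjusted p = 0.00662), both under the fold limit. Hence the direction in Tfe3 was opposite to that in Mitf and Tfec in both comparisons.

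Together with Tfeb, the fourth gene of the family, the MiT/TFE genes summed to 86.4 FPKM in control, 89.7 with PRDX1 alone, 102 with RANKL alone and 91.8 with PRDX1 + RANKL. The shares of Tfe3, Mitf and Tfec in that sum shifted as well. Tfe3 supplied 50.9% ± 1.51 (SD, n = 2) in control and 35.2% ± 1.54 with RANKL alone, whereas Mitf went from 14.0% ± 0.374 to 22.6% ± 0.226 and Tfec from 19.7% ± 1.80 to 25.9% ± 1.59. With PRDX1 + RANKL the shares were 47.0% for Tfe3, 16.5% for Mitf and 19.3% for Tfec. Tfeb held 15.4% to 17.2% in the means of all 4 groups.

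Of 11 genes of the family and its nuclear entry (Tfeb, the folliculin complex, the Rag GTPases and 14-3-3 proteins), RANKL alone raised 0 and lowered 1, with a median of -0.20 against 0.10 over all genes. This count was 4 under both other scalings, 2 with voom, 2 without control replicate 1 or RANKL replicate 2, and 3 without RANKL replicate 1. The gene that fell was Fnip2, a partner of folliculin (-0.97, adjusted p = 6.15e-07), followed by Rragc (-0.57) and Flcn (-0.53), which were not called. Addition of PRDX1 to RANKL raised Fnip2 alone among the 11 (0.76, adjusted p = 9.01e-06; 2 genes with a pseudocount of 0.1 or voom), with a median of 0.06 against -0.06 over all genes, and with PRDX1 alone Rragd rose (0.62) but was not called without control replicate 2, without PRDX1 replicate 1 or under quantile normalization. Of 18 lysosomal genes that MiT/TFE factors are known to drive, 0 rose (1 without control replicate 1) and 6 fell with RANKL alone (median -0.28), led by Ctsd (-1.27), Psap (-1.05) and Wipi1 (-0.86). PRDX1 added to RANKL raised 4 of them and lowered 0 (median 0.21), led by Ctsd (1.01), Psap (0.93) and Sqstm1 (0.85). Sqstm1 and Gla rose with PRDX1 alone, by 0.81 and 0.65.

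Prdm1 was the least abundant of the 8 factors per kilobase of transcript and had the largest linear fold change. It was read on NM_007548 (chr10:44437174-44458748, - strand, 7 exons). Its level was 1.02 and 1.08 FPKM in control (157 and 234 reads), 1.19 and 1.03 with PRDX1 alone (194 and 189 reads), 9.18 and 9.07 with RANKL alone (1302 and 1628 reads), and 1.60 and 1.81 with PRDX1 + RANKL (385 and 394 reads). Control and PRDX1 alone overlapped, PRDX1 + RANKL lay a little above them, and RANKL alone stood far above the rest.

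RANKL alone raised Prdm1 8.70-fold in mean FPKM, by 2.31 ± 0.09 (SE) on the log2 scale (adjusted p = 1.39e-08). PRDX1 added to RANKL lowered it by a log2 difference of -1.90 ± 0.09 (adjusted p = 1.91e-07), and the RANKL alone mean was 5.35 times that of PRDX1 + RANKL. In the presence of PRDX1, RANKL made a difference of 0.36 ± 0.09 (adjusted p = 0.0104), which was not called but passed the fold limit, at 0.62, with voom. Without RANKL, PRDX1 made a difference of 0.04, with a 95% confidence interval from -0.16 to 0.24 (adjusted p = 0.774). The interaction, -1.95 ± 0.13 (adjusted p = 6.60e-06), was the largest among the 8 factors. The difference between PRDX1 + RANKL and control was 0.40 (adjusted p = 0.00520) and passed the fold limit at 0.65 with a pseudocount of 0.1 and at 0.69 with voom.

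Prdm1 is also high in plasma cells. Of 7 markers of B and plasma cells, only Sdc1 had a mean of at least 0.5 FPKM, and it ranged from 9.72 to 85.1 FPKM. The markers summed to 10.3 to 10.9 FPKM in control, 19.8 to 21.0 with PRDX1 alone, 81.4 to 85.8 with RANKL alone and 70.8 to 72.6 with PRDX1 + RANKL.

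Irf8 and Bcl6 encode repressors of osteoclast formation that PRDM1 is known to silence. With RANKL alone, Irf8 fell by a log2 difference of -2.52 (adjusted p = 2.66e-10), from a mean of 49.0 to 7.75 FPKM, while Bcl6 differed by -0.24 (adjusted p = 0.0894). On top of RANKL, PRDX1 raised both, Irf8 by 1.55 (adjusted p = 2.72e-08) and Bcl6 by 0.61 (adjusted p = 0.00152), although only 1 of the 2 was called without RANKL replicate 1 or without PRDX1 + RANKL replicate 2. Irf8 then stood at 24.7 FPKM, under its control level. With PRDX1 alone neither was called, with differences of 0.27 in Irf8 and 0.42 in Bcl6, although 1 of the 2 was called higher without control replicate 2.

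Spi1, which encodes PU.1, was the most abundant of the 8 factors per kilobase of transcript and was read on NM_011355 (chr2:91096678-91115759, + strand, 5 exons). Its level was 184 and 181 FPKM in control, 191 and 217 with PRDX1 alone, 307 and 348 with RANKL alone, and 257 and 267 with PRDX1 + RANKL. No neighbouring groups overlapped in the order control, PRDX1 alone, PRDX1 + RANKL and RANKL alone. Spi1 rose 1.79-fold with RANKL alone, by 0.84 ± 0.07 (adjusted p = 3.86e-06). In the presence of PRDX1, RANKL made a difference of 0.36 ± 0.07 (adjusted p = 0.00280), and PRDX1 added to RANKL one of -0.32 ± 0.07 (adjusted p = 0.00497), both under the fold limit. The latter was -0.20 under quantile normalization (adjusted p = 0.0447). PRDX1 alone differed from control by 0.16 (adjusted p = 0.125), a value that was 0.25 without PRDX1 replicate 1 and 0.07 without PRDX1 replicate 2 (adjusted p = 0.601).

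Of 12 myeloid genes that PU.1 is known to drive, 0 rose (1 with a pseudocount of 0.1 or voom) and 8 fell with RANKL alone, while Spi1 itself rose. Their median log2 difference was -0.99 against 0.10 over all genes. The largest were those of Fcgr1, a high-affinity receptor for antibodies (-3.59), Cd14, the co-receptor of TLR4 (-1.65), and Msr1, a scavenger receptor (-1.24). In the presence of RANKL, PRDX1 raised 8 of the 12 and lowered 0 (median 0.78), led by Fcgr1 (2.46), Cd14 (1.14) and Csf3r, the receptor of G-CSF (0.996). With PRDX1 alone 3 of the 12 rose, namely Il1b (0.998), Csf3r (0.82) and Cebpa (0.81), and the median was 0.30 against -0.04 over all genes. Of these genes, Csf1r, Itgam, Lyz2 and Fcgr1 are also among the macrophage markers whose sum is given above, and Csf3r and Il1b are high in neutrophils.

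**Figure D4:**
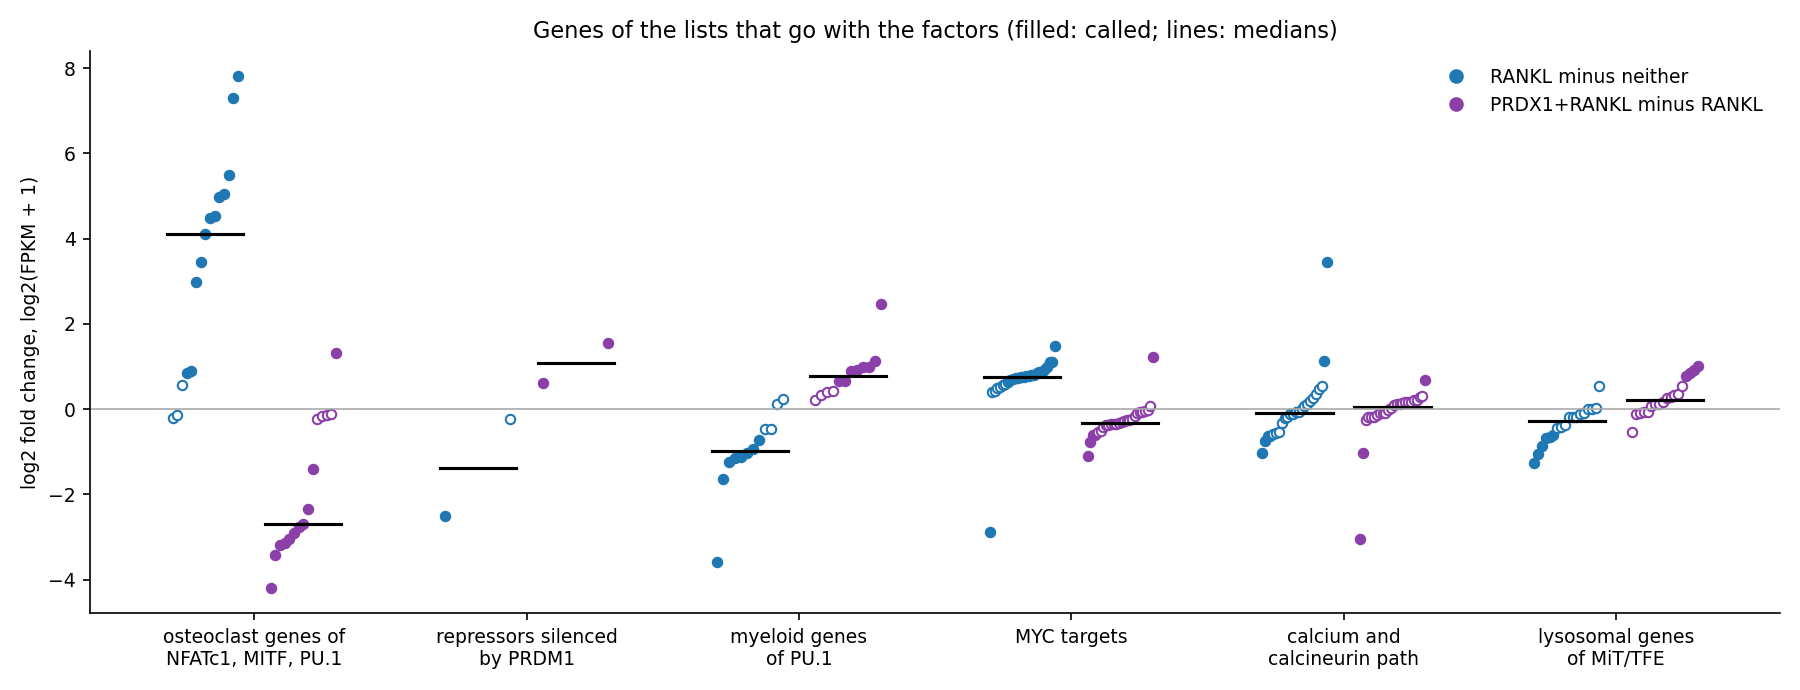
Log2 difference of each tested gene (y axis, log2(FPKM + 1) scale) in 6 gene lists that go with the factors, for RANKL alone minus control (left points of each list; neither stands for control) and PRDX1 + RANKL minus RANKL alone (right points), with a line at the median and filled points for called genes. The osteoclast genes have medians of 4.10 and -2.69, the MYC targets 0.75 and -0.31, and the PU.1 myeloid genes -0.99 and 0.78.

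Of 15 tested osteoclast genes that are bound or driven by NFATc1, MITF or PU.1, 12 rose and 0 fell with RANKL alone. Their median log2 difference was 4.10 against 0.10 over all genes, a list median that lay above the difference of each of the 8 factors. Oscar, Car2, Ctsk and Ocstamp had control means of only 0.0065, 0.02, 0.0825 and 0.1655 FPKM and passed the filter only through groups with RANKL. The filter thus favoured a rise with RANKL in these genes. Mmp9, a matrix protease, Ctsk, the protease cathepsin K that digests bone collagen, and Acp5, the phosphatase TRAP, led with 7.81, 7.29 and 5.49. In the presence of RANKL, PRDX1 lowered 10 of the 15 and raised 1, Gpnmb (median -2.69), led by Ctsk (-4.19), Mmp9 (-3.43) and Car2 (-3.19). Ctsk went from 168 FPKM with RANKL alone to 8.29 with PRDX1 + RANKL. The other 4 of the 15, which were not called in that comparison, were Tnfrsf11a, the receptor of RANKL (-0.24), Clcn7 (-0.16), Ostm1 (-0.13) and Tcirg1 (-0.11). Calcr, the calcitonin receptor, was too low to be tested.

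With PRDX1 alone 5 of the 15 rose and 1 fell (8 rose with a pseudocount of 0.1 or voom), although no factor among the 8 was called. Those with the largest differences were Atp6v0d2, a proton pump subunit (1.57), Src, a kinase of the osteoclast cytoskeleton (1.56), and Gpnmb, a MITF target (1.36), and the one that fell was Itgb3 (-0.79), chosen for naming after its value was seen. The median was 0.49 against -0.04 over all genes. The interaction was called below 0 for 12 of the 15 and above 0 for 0, with a median of -2.99 against -0.01 over all genes.

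Myc, the growth regulator, was read on NM_001177354 (chr15:61985341-61990361, + strand, 3 exons). It was at 18.6 and 20.6 FPKM in control, 22.3 and 22.5 with PRDX1 alone, 41.5 and 43.9 with RANKL alone, and 38.5 and 40.2 with PRDX1 + RANKL. No neighbouring groups overlapped in the order control, PRDX1 alone, PRDX1 + RANKL and RANKL alone, but both groups with RANKL stood close together. Myc rose 2.18-fold with RANKL alone, by 1.09 ± 0.06 (adjusted p = 2.24e-07). It rose with RANKL in the presence of PRDX1 as well, by 0.78 ± 0.06 (adjusted p = 8.19e-06), and PRDX1 + RANKL stood 0.97 above control (adjusted p = 9.97e-07).

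Adding PRDX1 to RANKL made a difference of -0.12 in Myc, with a 95% confidence interval from -0.26 to 0.02 (adjusted p = 0.163), so a decrease of more than 0.26 on the log2 scale lay outside the interval. The difference was -0.06 under quantile normalization (adjusted p = 0.444) and ranged from -0.15 to -0.08 with 1 library left out. The interaction of Myc was -0.30 ± 0.09 (adjusted p = 0.0346), and its 95% confidence interval, from -0.50 to -0.10, did not overlap those of Nfatc1 (-1.56 to -1.08), Mitf (-1.07 to -0.71) or Prdm1 (-2.23 to -1.66) but overlapped those of Spi1 (-0.70 to -0.25) and Tfec (-0.67 to -0.20). The difference of the interaction between genes was not itself tested.

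Of 26 MYC target genes, 19 rose and 1 fell with RANKL alone, with a median of 0.75 against 0.10 over all genes. The largest differences were the fall of Ccnd2, which encodes cyclin D2 (-2.89), and the rises of Ppargc1b, a coactivator of mitochondrial genes (1.47), and Shmt1, an enzyme of serine metabolism (1.12). With PRDX1 present, RANKL raised 6 of the 26 and lowered 1, with a median of 0.52 against 0.07 over all genes, led by Ccnd2 (-1.71), Polr1b, a subunit of RNA polymerase I (0.82), and Cad, an enzyme of pyrimidine synthesis (0.78). On top of RANKL, PRDX1 lowered 4 of the 26 and raised 1 (median -0.31 against -0.06), led by Ccnd2 (1.22), Ppargc1b (-1.10) and Tfrc, the transferrin receptor (-0.78). The number lowered was 2 under quantile normalization and upper quartile scaling. With PRDX1 alone 0 of the 26 were called, and the median was -0.06.

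The 9 partners and antagonists of MYC, such as Max and the Mxd proteins, had 0 calls with RANKL alone and 0 when PRDX1 was added to RANKL. The largest differences with RANKL alone were 0.44 in Mga, -0.39 in Mxd3 and 0.30 in Zbtb17. With PRDX1 alone 0 of the 9 were called, although 1 was called lower without control replicate 2, without PRDX1 replicate 1, with a pseudocount of 0.1 and with voom.

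A description of likeness was made for the 3 factors whose group means spanned at least 1 on the log2 scale, over the 8 libraries and 1527 genes with the same minimum span. The genes most like Nfatc1 were Lpcat1, Xrcc5 and Matk (Pearson r = 0.996, 0.996 and 0.995), and those most like Prdm1 were Rufy4, Myo1d and Siglec15 (0.999, 0.999 and 0.997). Siglec15, a receptor of osteoclast precursors, had means of 0.158, 0.350, 13.3 and 1.12 FPKM in control, PRDX1 alone, RANKL alone and PRDX1 + RANKL. The genes most like Myc were Cpe, Rasa4 and Nfkb2 (0.998, 0.997 and 0.996), and Nfkb2, the p100 subunit gene of NF-κB, had means of 11.0, 13.1, 72.2 and 63.4 FPKM in the same order. The libraries fall into 4 groups, so these values rest mainly on 4 group means.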

How the data were processed

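RNA of 8 libraries was sequenced. The authors aligned reads to mm10 (HISAT2, per the labels), counted them on RefSeq exons on both strands with HOMER, keeping 1 transcript per gene, and deposited the values as FPKM. The submitters' processing notes also name DESeq2, which was not used here. Tool versions are not given in the sources used here. FPKM multiplied by transcript length gave back whole reads (within 0.1 reads) for 100% of the genes checked, and library totals of 27284667 to 46171726. No exon of another gene overlapped those of the GENCODE vM21 transcripts matched to the 8 factors. Some counted transcripts reach beyond the matched ones, that of Mitf to 98021358 against 98018707 and that of Prdm1 down to 44437174 against 44438293. The bases beyond were not checked.

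Genes under a mean FPKM of 0.5 were left out, and log2(FPKM + 1) of the other 11700 was fitted with limma 3.58.1 (R 4.3.3) in 1 model of 4 group means with an intensity trend. Calls needed an adjusted p under 0.05 and a 1.5-fold or larger difference. A permutation of 2 libraries against 2 cannot go below p = 0.333. The script was tested on simulated data. Alternatives were quantile normalization, upper quartile scaling, a pseudocount of 0.1, no filter, a replicate block, voom on the recovered reads, and leaving out each library, whose group then rests on 1 library assumed to vary like the others.

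Named were the 8 factors, for each with group means spanning at least 1 the 3 genes of highest correlation, and up to 3 genes of largest difference per list; Itgb3, Gpnmb, Clcn7, Ostm1, Tcirg1, Tnfrsf11a, Bcl6, Gla and Sdc1, where outside that rule, were named after their values were seen. The factors and gene lists were chosen with earlier results of these data known, so the lists are not independent evidence. Promoters are from RefSeq (GRCm38.p6). 1 gene of the lists is not reported here.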

Additional observations from a re-analysis of the deposited data

Results flagged for a closer look

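For 7 of the 8 factors the effect of PRDX1 differed between cells with and without RANKL, by the interaction term of limma at an adjusted p under 0.05. The difference of the effects was -1.95 on the log2 scale for Prdm1 (adjusted p = 6.60e-06), -1.32 for Nfatc1 (adjusted p = 2.54e-05), -0.89 for Mitf (adjusted p = 4.70e-05), -0.48 for Spi1 (adjusted p = 0.00721) and 0.54 for Nfatc2 (adjusted p = 0.00888). It was -0.44 for Tfec (adjusted p = 0.0147) and -0.30 for Myc (adjusted p = 0.0346). Nfatc2 was the only one of the 7 with a difference above 0. The eighth factor, Tfe3, had a difference of 0.24 (adjusted p = 0.0783), whose adjusted p was 0.0252 with the replicate block, 0.0443 with voom and 0.0343 without RANKL replicate 2, and 0.0551 to 0.269 under the other alternatives. Of all genes tested, 23.1% met the same rule.

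The values for Tfec and Myc were the least stable. The adjusted p of Tfec rose to 0.0542 without control replicate 2, 0.0582 without PRDX1 replicate 1 and 0.0684 without PRDX1 + RANKL replicate 2. That of Myc rose to between 0.0717 and 0.128 when control replicate 1, either PRDX1 alone replicate, RANKL replicate 2 or either PRDX1 + RANKL replicate was left out, and to 0.0622 without the filter on low values. Groups of 2 libraries are too small for a test of outlying samples.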

How the results depend on the processing

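The total of genes called in each comparison stayed within 1.5 times under every alternative, but those called lower with PRDX1 alone went from 233 to 360 with a pseudocount of 0.1 and 389 with voom. Another scaling moved the median of all genes by at most 0.0715 on the log2 scale and turned which direction had more called genes in 2 comparisons. With RANKL alone, 1383 higher and 1165 lower became 1088 and 1322 under quantile normalization and 1153 and 1302 under upper quartile scaling. For RANKL with PRDX1 present, 529 and 466 became 457 and 563, and 466 and 542. Of the factor values under the alternatives, 641 kept direction and call, 17 gained the call, 4 (all Tfec with RANKL alone) lost it and 10 changed sign, all of values that were not called. Without 1 library each, the sign changed for PRDX1 alone against control in Tfe3 (range -0.0148 to 0.0617, below 0 without control replicate 1 and, at -0.00108, without PRDX1 replicate 2) and Prdm1 (-0.0133 to 0.0968, below 0 without PRDX1 replicate 1), and for PRDX1 added to RANKL in Nfatc2 (-0.0531 to 0.110, below 0 without PRDX1 + RANKL replicate 2 and, at -0.0392, without RANKL replicate 1). For RANKL with PRDX1 present it changed in Mitf (-0.0181 to 0.00557, above 0 without PRDX1 replicate 1) and Tfe3 (-0.0991 to 0.000461, above 0 without PRDX1 + RANKL replicate 1). For PRDX1 + RANKL against control it changed in Tfe3 (-0.0757 to 0.0239, above 0 without PRDX1 + RANKL replicate 1 and, at 0.0123, without control replicate 2) and Tfec (-0.0229 to 0.137, below 0 without control replicate 2). The interaction of Nfatc2 passed the fold limit under 5 alternatives, at 0.59 to 0.63. Causes were not tested. Same-numbered replicates correlated at 0.00847 to 0.0965 in their deviations. Groups of 2 libraries give too few deviations to show whether such replicates share an animal or culture. The folder numbers in the header of the deposited table are also not all those of the titles, on which this check and the block rest. With the replicate block 2551 genes were called for RANKL alone against 2548 without it, and 1192 against 1193 for PRDX1 added to RANKL. No factor gained or lost a call with the block by adjusted p and fold together, although the interaction of Tfe3, under the fold limit, went from an adjusted p of 0.0783 to 0.0252. With 2 libraries a group, small differences such as that of Tfe3 with PRDX1 alone were not detectable.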
